A study of Mus musculus with 2 samples.

Results

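Tcf1 binding was described at the loci of 9 genes of the ETS family, namely Ets1, Fli1, Ets2, Elf1, Elf2, Elf4, Gabpa, Etv6 and Elk3. The members were the Tcf1 ChIP-seq peaks whose summit lay in the body of one of these genes or within 50 kb of either end, by the GENCODE vM1 annotation of the mm9 mouse genome. The rule used position only, and it found 74 of the 22286 deposited peaks, none of which fell in the windows of 2 genes. Of the 74, 63 were high-confidence peaks, which passed the limits of the study on p (1e-05), q (0.05) and fold enrichment (4 or more), out of 19042 such peaks in all. The share that passed was 85.1% (exact binomial 95% interval 75.0 to 92.3), against 85.4% of all deposited peaks.

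The peaks came from 1 WT library and 1 Tcf1-deficient library of naïve CD8+ T cells, each immunoprecipitated with a rabbit antiserum raised against full-length Tcf1, and the Tcf1-deficient library served as the control for peak calling. The cells were sorted from spleen by the phenotype GFP+ TCRbeta+ CD62Lhi CD44lo-med CD8+. The WT and control mice carried hCD2-Cre, a transgene active mainly in mature T cells, and a Rosa26-lsl-GFP reporter per the series design, which gives the control as floxed at both Tcf1 and Lef1. The genotype label of the control is Tcf1-/-Lef1-/-, its title names only Tcf1, and the study's methods describe Cd4-Cre+ Tcf7 fl/fl mice. Whether the control cells lacked Lef1 is therefore not settled by these sources. After removal of duplicates the WT library held 36938606 fragments and the control 27625250. With 1 library per group there was no replicate check and no test between genotypes, and each interval given here covers counting error only. A peak list holds no expression, so the labelled cell type could not be checked, and fragments over the deleted exons were not analysed here. At Tcf7, which encodes Tcf1, 19 high-confidence peaks were found, the strongest with a fold enrichment of 142.

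ETS factors bind DNA through a winged helix-turn-helix domain that reads a GGAA core, and several of them are needed for the development, survival or quiescence of T cells. Ets1 and Fli1 are neighbouring genes of the family, expressed in lymphocytes and other blood cells. Elf1, Elf2 and Elf4 form a separate subgroup, Gabpa is the DNA-binding subunit of the GABP complex, and Etv6 and Elk3 are known mainly as repressors. Tcf1 is an HMG-box factor that recognizes a Tcf/Lef sequence with the core ATCAAAG, and Runx factors, which often share regulatory elements with both families in T cells, recognize TGTGGTT.

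The summit windows that carry the main features of these loci are printed below as the + strand of mm9, 100 bp on each side of the summit. Capitals mark the exact 7-base cores of Tcf/Lef (ATCAAAG), ETS (CGGAAGT) and Runx (TGTGGTT) on either strand, and also any other copy of their 6-base parts, which are TCAAAG for Tcf/Lef sites, GGAAGT for ETS sites and TGTGGT for Runx sites. These windows hold the 5 high-confidence peaks with the exact Tcf/Lef core.
Fli1 intron 1, 53.8 kb from the start site (chr9:32295066-32295266, + strand): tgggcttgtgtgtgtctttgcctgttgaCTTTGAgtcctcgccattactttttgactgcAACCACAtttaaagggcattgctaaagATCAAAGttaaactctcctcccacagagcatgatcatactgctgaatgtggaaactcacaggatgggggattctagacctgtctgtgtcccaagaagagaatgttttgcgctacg
Fli1 intron 1, 3.07 kb from the start site (chr9:32345807-32346007, + strand): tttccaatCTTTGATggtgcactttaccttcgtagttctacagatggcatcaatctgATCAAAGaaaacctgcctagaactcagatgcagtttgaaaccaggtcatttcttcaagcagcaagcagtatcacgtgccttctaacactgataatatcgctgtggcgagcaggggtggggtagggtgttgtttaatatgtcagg
Kcnj1 intron 1, in the Fli1 window (chr9:32202658-32202858, + strand): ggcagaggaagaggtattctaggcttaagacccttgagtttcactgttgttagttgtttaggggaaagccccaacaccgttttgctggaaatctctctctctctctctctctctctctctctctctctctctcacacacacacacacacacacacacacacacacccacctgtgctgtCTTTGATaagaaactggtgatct
Ets2, downstream (chr16:95971364-95971564, + strand): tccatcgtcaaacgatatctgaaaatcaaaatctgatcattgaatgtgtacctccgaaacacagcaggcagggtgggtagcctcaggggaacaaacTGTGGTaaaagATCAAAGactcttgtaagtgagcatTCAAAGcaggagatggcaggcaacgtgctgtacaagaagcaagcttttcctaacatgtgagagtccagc
Sugt1 intron 2, in the Elf1 window (chr14:79993918-79994118, + strand): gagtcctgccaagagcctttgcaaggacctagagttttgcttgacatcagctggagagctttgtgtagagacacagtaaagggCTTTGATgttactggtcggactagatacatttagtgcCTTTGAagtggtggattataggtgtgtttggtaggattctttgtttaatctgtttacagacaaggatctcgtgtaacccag
The strongest peaks in the Ets1, Elf1 and Elf2 windows are shown next, because none of them carried an exact core in this window.
Ets1 intron (chr9:32513863-32514063, + strand): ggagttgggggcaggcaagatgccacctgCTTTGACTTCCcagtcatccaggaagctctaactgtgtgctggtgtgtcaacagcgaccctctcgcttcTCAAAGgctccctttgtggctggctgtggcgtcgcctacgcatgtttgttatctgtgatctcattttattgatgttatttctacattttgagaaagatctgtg
Sugt1 intron 2, in the Elf1 window (chr14:79990893-79991093, + strand): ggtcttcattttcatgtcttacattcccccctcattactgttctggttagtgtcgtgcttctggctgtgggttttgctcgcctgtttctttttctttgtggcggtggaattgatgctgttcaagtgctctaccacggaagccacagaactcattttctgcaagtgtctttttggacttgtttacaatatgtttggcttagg
Elf2, near internal start sites (chr3:51080231-51080431, + strand): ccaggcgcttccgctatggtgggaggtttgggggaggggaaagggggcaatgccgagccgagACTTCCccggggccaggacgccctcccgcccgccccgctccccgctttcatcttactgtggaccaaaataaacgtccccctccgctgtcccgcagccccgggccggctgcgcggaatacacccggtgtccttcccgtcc
The last window is shown because it holds 4 copies of GGAAGT, the most of any of these windows.
Fli1, upstream (chr9:32378372-32378572, + strand): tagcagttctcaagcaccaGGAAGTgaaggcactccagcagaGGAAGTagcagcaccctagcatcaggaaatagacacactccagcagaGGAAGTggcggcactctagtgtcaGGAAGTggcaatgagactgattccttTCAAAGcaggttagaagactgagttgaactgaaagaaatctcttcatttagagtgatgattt

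The 63 high-confidence peaks were unevenly spread over the 9 genes. Ets1 had 15 (Poisson interval 8.40 to 24.7), Fli1 had 14 (7.65 to 23.5) and Elf1 had 12 (6.20 to 21.0), so that these 3 loci held 41 of the 63 peaks (65.1%). Elf2 had 5, Ets2, Elf4, Etv6 and Elk3 had 4 each, and Gabpa had 1. The interval of Elf2 (1.62 to 11.7) and that of the genes with 4 peaks (1.09 to 10.2) overlap those of Ets1, Fli1 and Elf1, and only Gabpa (0.025 to 5.57) lay clear of all 3. All 9 genes had at least 1 high-confidence peak, against 66.5% of the 22350 protein-coding genes under the same rule, whose median count was 1 (interquartile range 0 to 3). Fewer peaks than at Ets1, Fli1 and Elf1 were found at 99.7%, 99.6% and 99.1% of protein-coding genes, respectively. At Gabpa the share with fewer peaks was 33.5%.

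These genes are longer than most, since the median protein-coding gene spans 15.4 kb while Ets1 spans 122 kb, Fli1 119 kb and Elf1 101 kb, and long genes have larger windows. Scaled to window length, Ets1 had 6.77 high-confidence peaks per 100 kb, Fli1 6.39 and Elf1 5.96, which exceeded 96.8%, 96.1% and 95.4% of protein-coding genes. Etv6, the longest of the 9 at 234 kb, fell to 1.2 per 100 kb, and Gabpa to 0.776, near the median of 0.973 over all protein-coding genes. Over the 1720 kb covered by the 9 windows the density was 3.66 per 100 kb (2.81 to 4.69), against 0.721 over the genome as a whole.

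**Figure D1:**
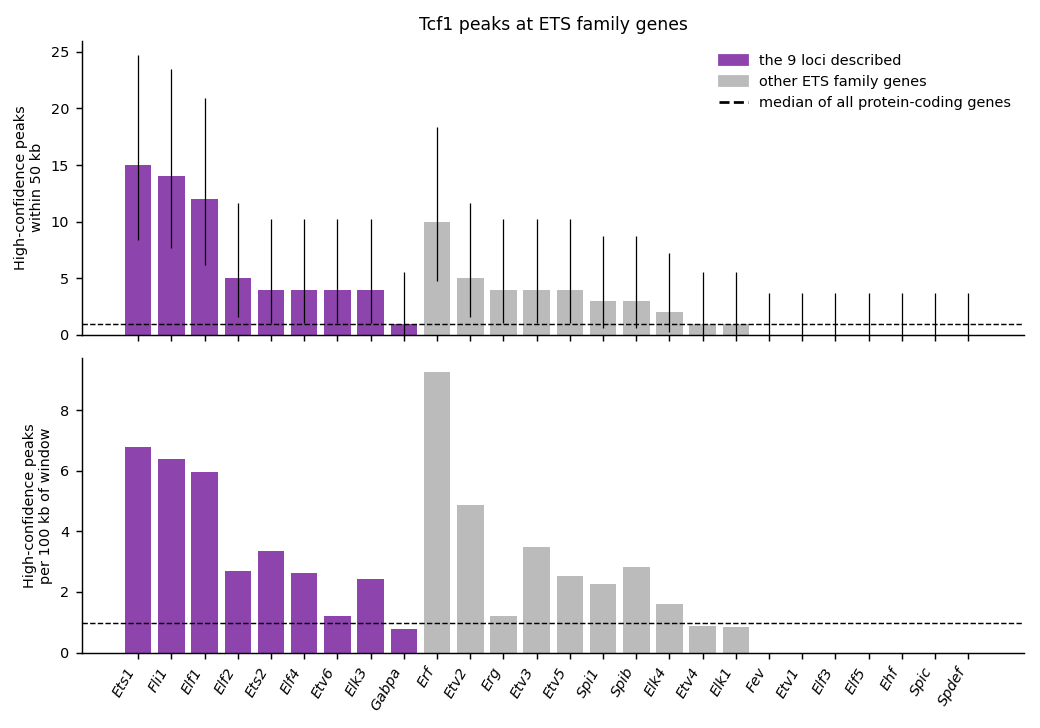
High-confidence Tcf1 peaks within 50 kb of each ETS family gene (upper panel, bars with Poisson 95% intervals) and the same per 100 kb of window (lower panel). Ets1, Fli1 and Elf1 stand highest among the 9 loci described, with 15, 14 and 12 peaks, and the dashed lines mark the medians of all protein-coding genes, 1 peak and 0.973 per 100 kb.

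The peaks at ETS loci were about as strong as peaks elsewhere. Their median fold enrichment, the WT pileup plus 1 over the control level plus 1, was 7.17 (order-statistic interval 5.92 to 8.57), and the median over all high-confidence peaks was 6.86. The median pileup, the WT fragments counted at the summit, was 45 against 44, and the median width was 483 bp against 484 bp. A fold enrichment of at least 10 was reached by 19 of the 63 (30.2%, interval 19.2 to 43.0), against 27.4% of all high-confidence peaks. The control level at the summit was at its genome-wide floor of 5.42 fragments in 55 of the 63 (87.3%), against 86.3% of all, so that for most of these peaks the fold enrichment follows the WT pileup alone.

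**Figure D2:**
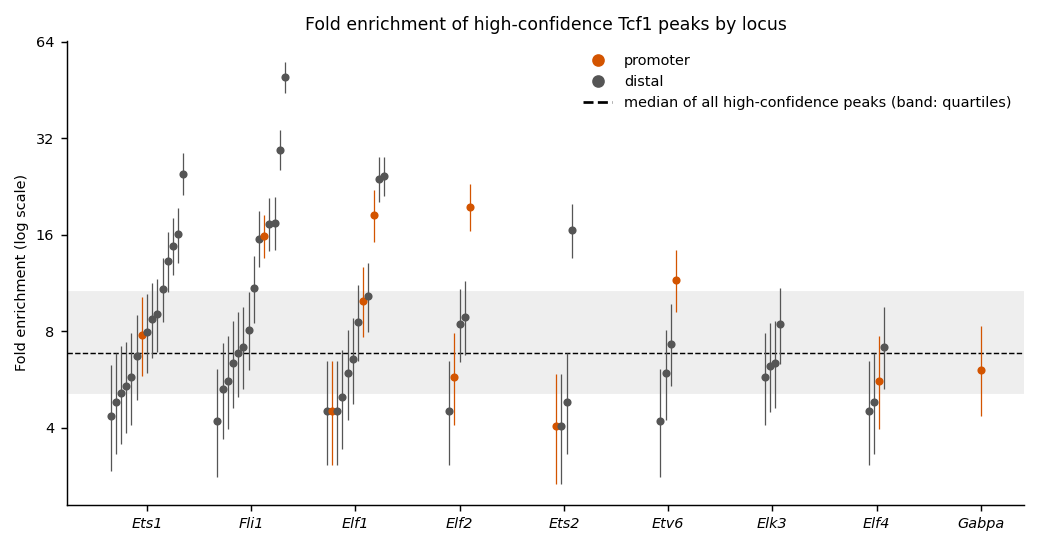
Fold enrichment (log axis) of each of the 63 high-confidence peaks by locus, with 95% intervals from the Poisson error of the WT pileup. The dashed line and band give the median, 6.86, and quartiles of all 19042 high-confidence peaks, and 1 Fli1 peak, at 49.7, lies above the intervals of the rest.

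Fli1, a regulator of blood and endothelial development that also restrains effector CD8+ T cells, held the strongest peak of the 9 loci. Its gene (ENSMUSG00000016087.6) spans chromosome 9, 32229793 to 32348974, on the minus strand. The peak, in intron 1, had a pileup of 318 and a fold enrichment of 49.7 (44.4 to 55.5), rank 109 of the 19042 high-confidence peaks. The interval did not overlap that of any other peak at these loci. A further peak of intron 1, with its summit at 32295166, reached a fold enrichment of 29.4 (25.4 to 33.9) and rank 610.

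Most Tcf1 binding at Fli1 lay in this intron. Outside the promoter, intron 1 held 11 of the 14 high-confidence peaks over 52.2 kb, whose fold enrichments ran from 4.21 to 49.7 around a median of 10.9. In 9 of them each summit lay within 10 kb of the next, a block of 33.2 kb whose median fold enrichment was 15.6. Of the 13141 such blocks and single summits on the numbered chromosomes and X, 28 held as many summits or more. The promoter peak, 97 bp upstream of the start site, had a fold enrichment of 15.8 (13.5 to 18.4). It also had the highest control level of the 63, 9.36 fragments under a pileup of 163. An upstream peak at 32378472, 29.5 kb from the start site, had a fold enrichment of 6.86 and 4 copies of GGAAGT, each preceded by A. The remaining peak lay downstream in intron 1 of Kcnj1, which encodes a potassium channel, with a fold enrichment of 6.39.

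Ets1, the founding member of the family and a partner of Runx1 in T cells, had more high-confidence peaks than any other of the 9 genes, with fold enrichments of 4.36 to 24.8 (median 7.95). The gene (ENSMUSG00000032035.7) spans chromosome 9, 32443806 to 32565405, on the plus strand, and faces away from Fli1 across 94.8 kb. It has annotated start sites at 32443806, for 1 transcript, and at 32503627, for 3 transcripts. The inner start site had a peak with its summit 67 bp away, with a pileup of 49 and a fold enrichment of 7.79 (5.80 to 10.2). At the outer start site the nearest deposited summit was 15.6 kb away. From the inner start site onward 12 high-confidence summits, each within 10 kb of the next, formed a block of 51.5 kb. In the whole list 10 blocks, this one included, held as many or more.

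The strongest Ets1 peak, with its summit at 32513963 and 10.3 kb into the gene from the inner start site, reached 24.8 in fold enrichment (21.3 to 28.8), from a pileup of 173 over a control level of 6.02. Next came an intergenic peak at 32399641, 44.2 kb upstream of the outer start site, with a fold enrichment of 16.05 (13.1 to 19.4). That peak lies between the genes, inside the Ets1 window and, at 50.7 kb from Fli1, just outside the Fli1 window. A peak at 32553675, 50.05 kb from the inner start site, followed with 14.8 (12.0 to 18.1), an interval that overlaps the one before it. Ets1 also held 7 of the 11 deposited peaks under the fold minimum, with fold enrichments from 2.86 to 3.90. Its window had 22 deposited peaks.

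Elf1, an ETS factor abundant in lymphocytes, showed binding in its introns and at the gene that follows it. Elf1 (ENSMUSG00000036461.8) spans chromosome 14, 79881001 to 79982283, on the plus strand. Its strongest own peak, with its summit at 79937398 in intron 2, had a pileup of 152 and a fold enrichment of 23.8 (20.2 to 27.9). Of the 12 high-confidence peaks in the window, 7 had an Elf1 start site as the nearest start site of any transcript of a protein-coding gene, the measure used for nearest genes throughout. The 3 peaks downstream of Elf1 lay in Sugt1, which encodes a co-chaperone, with fold enrichments of 18.4 at its promoter and 24.4 (21.2 to 28.0) and 8.57 in its intron 2. The 24.4 at Sugt1 and the 23.8 at Elf1 could not be told apart within counting error, nor from the 24.8 at Ets1.

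The other Elf genes had fewer peaks. At Elf2 (ENSMUSG00000037174.9, chromosome 3, 51059153 to 51144580, minus strand) the strongest peak lay inside the gene, with its summit at 51080331, a pileup of 136 and a fold enrichment of 19.5 (16.4 to 23.1). It was 956 bp from the start site of a transcript with a retained intron and 1105 bp from the nearest start site of a protein-coding transcript, so it counts as a promoter peak only through the former. The peak downstream of Elf2, at 8.88, lay in intron 1 of Ccrn4l. At Elf4 (ENSMUSG00000031103.6, chromosome X, 45764223 to 45816309, minus strand), known for holding CD8+ T cell proliferation in check, the fold enrichments were 4.52 to 7.17. The strongest Elf4 peak lay in intron 1 with its summit at 45805201 and a pileup of 45.

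Ets2, a Ras-responsive relative of Ets1, had weak binding at the gene and stronger binding beyond it. The gene (ENSMUSG00000022895.8) spans chromosome 16, 95923682 to 95942658, on the plus strand. Its promoter peak had a pileup of 25 and a fold enrichment of 4.05 (2.68 to 5.91), just past the minimum. An intergenic peak with its summit at 95971464, 28.8 kb past the end of the gene, had a pileup of 105 and a fold enrichment of 16.5 (13.5 to 19.96), an interval that does not overlap that of the promoter. The nearest start site of a protein-coding gene was an internal one of Ets2, that of a transcript with a retained intron. The remaining 2 peaks were intergenic as well, at 4.05 and 4.83.

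The single Gabpa peak lay at a promoter shared with another gene. Gabpa (ENSMUSG00000008976.9) spans chromosome 16, 84835170 to 84864024, on the plus strand, and the summit at 84835245 was 75 bp inside it. The nearest start site of a protein-coding gene was that of Atp5j, which encodes a subunit of the mitochondrial ATP synthase. The pileup was 38 and the fold enrichment 6.08 (4.35 to 8.28). Gabpb1 and Gabpb2, which encode the partner subunits of Gabpa, had 4 and 7 high-confidence peaks in windows drawn by the same rule. Only 1 peak in each of these windows was nearest to a start site of the gene itself.

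Etv6 and Elk3 had 4 high-confidence peaks each. At Etv6 (ENSMUSG00000030199.9, chromosome 6, 133985718 to 134220176, plus strand) the promoter peak was the strongest, with its summit at 133985685, a pileup of 80 and a fold enrichment of 11.5 (9.18 to 14.3). Then 2 peaks followed in intron 1 at 7.32 (5.40 to 9.72) and 5.92, and 1 in intron 3 at 4.21. The intervals of the promoter peak and of the 7.32 peak overlap. At Elk3 (ENSMUSG00000008398.7, chromosome 10, 92710159 to 92773880, minus strand), a ternary complex factor that acts with SRF, the strongest peak lay in intron 3 with its summit at 92724067 and a fold enrichment of 8.41 (6.34 to 11.0). The interval of the latter overlaps those of the other peaks in the window, which were 5.76 to 6.39. The 6.39 peak lay 19.35 kb past Elk3 in intron 9 of Cdk17, which encodes a kinase, and was nearest to a Cdk17 start site.

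**Figure D3:**
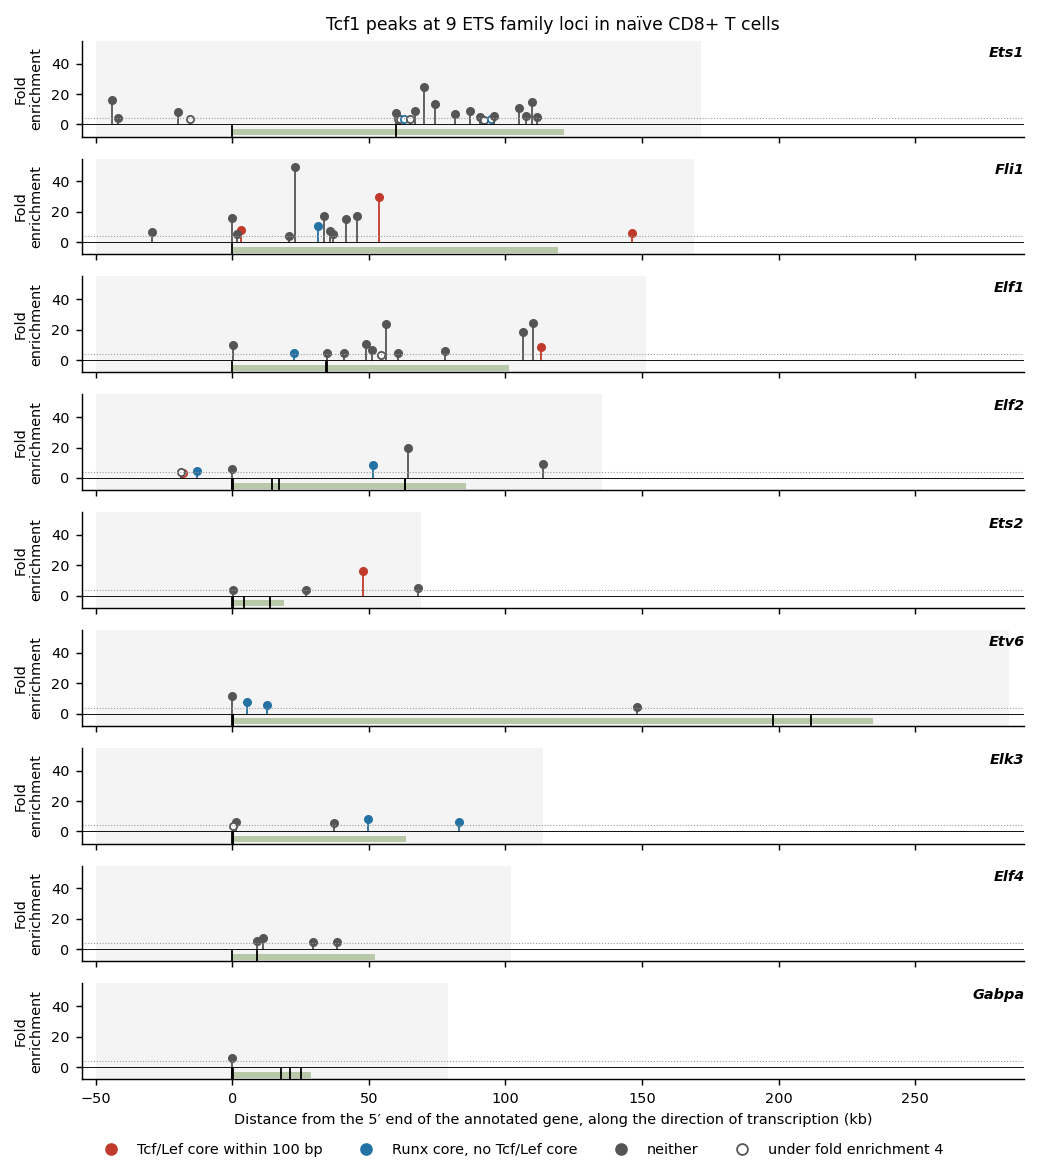
Fold enrichment of all 74 deposited peaks against the distance of the summit from the 5′ end of the gene, in kb along the direction of transcription. Green bars are gene bodies, black ticks are annotated start sites, grey shading is the window, the dotted line is the fold minimum of 4, open points are the 11 peaks under it, and colour gives the exact core within 100 bp. Blocks of peaks are seen in intron 1 of Fli1 and after the inner start site of Ets1.

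Promoters, taken as 1 kb on each side of any annotated start site, held a high-confidence peak at 8 of the 9 genes, against 32.8% of protein-coding genes. The fold enrichments of the strongest promoter peak of each gene ran from 4.05 at Ets2, 5.61 at Elf4, 6.08 at Gabpa and 7.79 at Ets1 to 9.97 at Elf1, 11.5 at Etv6, 15.8 at Fli1 and 19.5 at Elf2. Each value overlapped its neighbours in this order within the intervals. The summit of the 9.97 peak was 393 bp from the Elf1 start site but nearer to one of Wbp4, at 319 bp. The Elf4 peak was at the start site of 1 transcript. At the other Elf4 start site, for 2 transcripts, the nearest deposited summit was 8877 bp away. A further promoter peak at Elf1 had 4.52 and one at Elf2 had 5.76. Elk3 was the gene without one, but a deposited peak with its summit 58 bp from a start site had a pileup of 23 and a fold enrichment of 3.74 (2.43 to 5.53), an interval that covers the minimum.

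Of the 63 peaks, 11 lay in a promoter, 10 of an ETS gene and 1 of Sugt1, which is 17.5% (9.05 to 29.1). The share was 39.6% of all high-confidence peaks and 42.4% of the 17564 within 50 kb of a protein-coding gene. Another 44 (69.8%, 57.0 to 80.8) lay elsewhere in a gene, against 33.0% of all high-confidence peaks and 35.3% of those near protein-coding genes. The 8 intergenic peaks made up 12.7% (5.65 to 23.5), against 27.4% of all high-confidence peaks and 22.3% of those near protein-coding genes, a value inside the interval. Gene length was not held constant in these shares. In all, 46 summits lay in the body of an ETS gene, 8 upstream and 9 downstream, and for 54 of the 63 the nearest start site of a protein-coding gene was one of the ETS gene, transcripts of any type included. Introns of the ETS genes held 43 of the 46. A summit of another high-confidence peak lay within 10 kb of 43 of the 63 (68.3%), against 49.2% of all high-confidence peaks. Most of the 43 were at 3 loci, with 14 at Ets1, 12 at Fli1 and 9 at Elf1. Elf4 had 4, Etv6 had 3 and Ets2 had 1, and Elf2, Gabpa and Elk3 had none.

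The exact Tcf/Lef core lay within 100 bp of 5 of the 63 summits (7.94%, interval 2.63 to 17.6), against 10.2% of all high-confidence peaks and 2 of the 126 windows of the same length taken 2 kb to each side. Leaving out Fli1, which held 3 of the 5, gave 4.08%, and leaving out Ets1 gave 10.4%. Over the 52 distal peaks alone the share was 9.62% (3.20 to 21.0), against 13.5% of all distal high-confidence peaks. The Fli1 intron peak at 32295166 carried the core 11 bp from its summit and a Runx core 38 bp from it, and was the only one of the 63 with both. The downstream Ets2 peak carried the core 10 bp from its summit, the Sugt1 intron peak 14 bp, and the Kcnj1 intron peak 81 bp. The Fli1 intron peak 3.07 kb from the start site had 2 copies, the nearer one 40 bp from the summit. Among the 19 peaks with a fold enrichment of at least 10, the exact core was found at 2, the Fli1 intron peak at 29.4 and the Ets2 peak at 16.5. The Runx core was found at 2 of the same 19, the Fli1 intron peak at 29.4 and another peak of that intron with its summit at 32317533 and a fold enrichment of 10.9. The share of either core over all high-confidence peaks of that strength is not given here, so these counts have no background.

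None of the 15 Ets1 peaks carried the Tcf/Lef, ETS or Runx core within 100 bp of its summit. A count of 0 allows up to 20% for each. Over the whole peak the Runx core was found in 3 of the 15 (20%), Tcf/Lef in 1 (6.67%) and ETS in 1 (6.67%). Over all high-confidence peaks these shares were 22.6%, 15.1% and 11.1%. The strongest Ets1 peak, printed above, held 2 copies of TCAAAG but not the 7-base form. Allowing A or T at each of the first 2 positions of the core raised the share to 16 of 63 (25.4%), against 28.3% of all high-confidence peaks and 19.0% of the flanking windows.

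The ETS core itself was not found at any of the 63 summits, which allows a share of up to 4.76% by the limit of 3 counts and 5.69% by the exact binomial interval, against 6.93% of all high-confidence peaks. The core is mostly a promoter feature in this list, found at 13.3% of promoter peaks and 2.75% of distal ones, and of these 63 peaks 52 were distal. For the 11 promoter peaks a count of 0 allows up to 27.3%, and for the 52 distal peaks it allows up to 5.77%, so that a difference from all high-confidence peaks was not detectable within either class. Searched over the whole peak, CGGAAGT was found in 4 of the 63 (6.35%), against 11.1% of all high-confidence peaks. The 4 were at the Gabpa and Sugt1 promoters, the Elf2 peak at 51080331 and an Ets1 intron. With AGGAAGT included, 12 of the 63 summits had an ETS sequence (19.0%, 10.2 to 30.9), against 22.5% of all high-confidence peaks and 5.56% of the flanking windows.

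The Runx core lay at 9 of the 63 summits (14.3%, 6.75 to 25.4), against 15.5% of all high-confidence peaks and 6.35% of the flanking windows. The windows of Fli1, Elf2, Etv6 and Elk3 had 2 each and that of Elf1 had 1, all of them distal, with 1 of the Elk3 pair at the Cdk17 intron peak. Over the 52 distal peaks alone the Runx core lay at 17.3% (8.23 to 30.3), against 21.7% of all distal high-confidence peaks. The strongest Elk3 peak carried it 10 bp from its summit and the 7.32 peak of Etv6 carried it 4 bp from its summit. At least 1 of the 3 cores was found at 13 of the 63 summits (20.6%, 11.5 to 32.7), an interval that covers the 30.4% of all high-confidence peaks, and 50 had none. The median GC content of the 201-bp summit windows was 49.3% (47.8 to 51.2), against 51.7%, while over distal peaks alone it was 48.8% at these loci and 48.8% in the whole list.

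**Figure D4:**
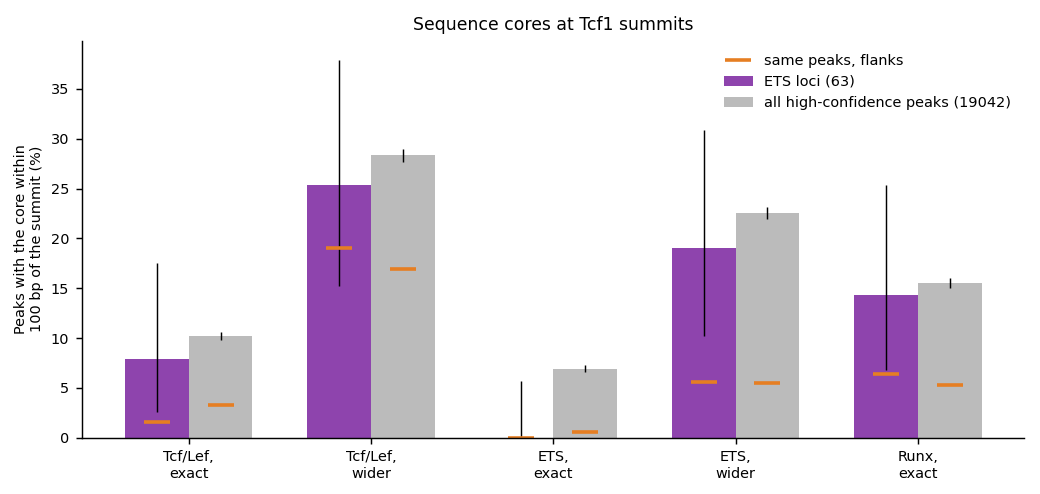
Share of summits with a core within 100 bp, in percent, for the 63 peaks at ETS loci and all 19042 high-confidence peaks, with exact binomial 95% intervals. Orange marks give the share in windows 2 kb to each side of the same peaks, and the exact ETS core stands at 0 of 63 against 6.93%, with distal and promoter peaks pooled.

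The other 17 genes of the family had fewer peaks as a group. The set was taken by family membership, but the 9 loci were not drawn from the family at random, so their difference is a description. High-confidence peaks were found at 10 of the 17, with a median count of 1 against 4 for the 9 genes, and a promoter peak at 4 of the 17. Erf, a repressor of the family, had the most with 10, of which 1 was nearest to an Erf start site. Its density of 9.24 per 100 kb, above that of 99.2% of protein-coding genes, exceeded that of each of the 9 genes. Etv2 had 5, or 4.87 per 100 kb, none of which was nearest to its own start site. No high-confidence peak was found at Fev, Etv1, Elf3, Elf5, Ehf, Spic or Spdef, of which Elf3, Elf5, Ehf and Spdef are mainly factors of epithelial cells.

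The windows end at a fixed distance, and peaks lay on both sides of their edges. At Ets2 a peak 48.9 kb from the gene, with a fold enrichment of 4.83, was inside and a peak at 58.1 kb, with 12.8, was outside. At Elf2 a peak 50.7 kb from the gene, with a fold enrichment of 4.67, was just outside. At Ets1 the nearest peak outside lay 57.9 kb from the gene, with a fold enrichment of 9.19.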

How the data were processed

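ChIP-seq for Tcf1 was performed in 1 WT and 1 Tcf1-deficient library of naïve CD8+ T cells. The authors aligned reads to mm9 with Bowtie2 2.2.5 and called peaks with MACS2 2.1.1 in paired-end mode, WT against Tcf1-deficient, with p under 1e-05 and 1 fragment retained per position (46428124 and 36118114 fragments before, 36938606 and 27625250 after, per the file headers). PCR duplicates were removed by position, without molecular identifiers.

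The deposited list gives 4 kinds of value per peak. The deposited pileup is a signal, the WT fragment coverage at the summit in whole numbers. The deposited fold enrichment is a ratio of the pileup plus 1 to the local control level plus 1. The deposited −log10 p and −log10 q compare these libraries, not genotypes, since peaks are not replicates. The deposited positions are 1-based mm9 coordinates. The file headers state that q was not calculated and that the larger library was scaled, while the list holds q for every peak. The authors pooled nothing and gave 1 list for both libraries.

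High-confidence peaks were taken by the criteria of the study's methods (fold enrichment of at least 4, p under 1e-05, q under 0.05). The control level was computed back as (pileup + 1)/fold enrichment − 1. Summits were placed on GENCODE vM1 genes of the reference NCBIM37, which is mm9, with windows of 50 kb beyond the gene body and promoters of 1 kb on each side of a start site. The exact cores ATCAAAG for Tcf/Lef sites, CGGAAGT for ETS sites and TGTGGTT for Runx sites were searched on both strands within 100 bp of the summit and in windows of the same length 2 kb to each side. The same rules were run on all high-confidence peaks or all 22350 protein-coding genes. Spi1 stands under its older symbol Sfpi1 in this annotation.

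Intervals are 95% and exact: Poisson for counts and for the pileup in a fold enrichment, Clopper-Pearson for shares, and binomial order statistics for medians. A share of 0 was given the upper limit of 3 counts. They cover counting error only. No test was run, because there is 1 library per group. At each locus the strongest peak, each promoter peak and each peak with the exact Tcf/Lef core were named, and the others were given by count and range, except where the text names a further peak, which was chosen after its values were seen. The members, gene lists and cores were chosen with earlier results of these data known. The blocks of summits within 10 kb, the 6-base forms in single windows and the peaks near protein-coding genes were also chosen after seeing the data. The position and sequence of 1 of the peaks described are not reported here. Interval and core-search code was tested on simulated data. Analyses used Python 3.11.15, pandas 2.3.3, scipy 1.17.1, pysam 0.24.0, samtools 1.23.1 and matplotlib 3.10.9. Alternatives changed the window, the fold minimum, the promoter width, the core and the loci included.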

Additional observations from a re-analysis of the deposited data

Results flagged for a closer look

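The high-confidence set left out the 11 deposited peaks at these loci that fell under the fold minimum of 4. Such peaks were about as common here as elsewhere, since 85.1% of deposited peaks passed at these loci and 85.4% of all deposited peaks. Ets1 held 7 of them, among 22 deposited peaks in its window, Elf2 2, Elf1 1 and Elk3 1. Their fold enrichments ran from 2.86 to 3.90 and their pileups from 21 to 34. For 9 of the 11 the pileup lay within 1 Poisson SD of the minimum, as it did for 13 of the 63 peaks above it. The exact Tcf/Lef core was found at 1 of the 11, an Elf2 upstream peak with its summit at 51162601 and a fold enrichment of 3.58, and the Runx core at 2, both in Ets1. Promoters held 2 of the 11, 1 at Ets1 and 1 at Elk3. Shares of cores and promoters over all deposited peaks under the minimum are not given here.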

How the results depend on the processing

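Over 10 results and 142 alternatives, 6 of them added after the data were seen, 129 values stayed close to the main count or within the interval of the main value, and 13 did not. A fold minimum of 8 left 27 high-confidence peaks with a median fold enrichment of 14.8, 1.57 peaks per 100 kb and 4 genes with a promoter peak, which follows from the peaks it removes. Narrower windows raised the density to 5.17 per 100 kb with 10 kb beyond the gene and 5.57 in gene bodies alone. Searching the whole peak gave the ETS core at 6.35% and the Runx core at 25.4% of peaks, against 11.1% and 22.6% of all high-confidence peaks. Cores of 6 bases were found at 28.6% (Tcf/Lef), 27.0% (ETS) and 31.7% (Runx), against 26.4%, 28.1% and 31.5%. Wider cores gave 25.4% (Tcf/Lef) and 19.0% (ETS), against 28.3% and 22.5%. The last 7 values at ETS loci follow from longer windows or looser sequences. Leaving out each locus in turn gave 48 to 62 high-confidence peaks, a median fold enrichment of 6.54 to 7.32, 3.19 to 4.26 peaks per 100 kb, a promoter share of 15.5% to 20.8%, a Runx share of 11.9% to 18.8% and a Tcf/Lef share of 4.08% (without Fli1) to 10.4% (without Ets1). The Tcf/Lef share, 7.94% of the 63 peaks, was also 3.85% with 10 kb beyond the gene, 4.35% in gene bodies alone and 14.8% at a fold minimum of 8, each within the interval of the 7.94% (2.63 to 17.6). No paired analysis was possible because there was 1 library per group. The depth of 1 WT library limits peaks near the minimum.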
